A study of Mus musculus with 6 samples.

Results

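Matrix metalloproteinases, ADAMTS proteases and their tissue inhibitors were followed in mammary tumors of NeuT/ATTAC mice treated with IgG or anti-PD-1 mAb. The genes were the protein-coding mouse genes of the GRCm38 annotation whose symbols begin with Mmp, Adamts or Timp followed by a number, with an optional a or b for Mmp. The rule gave 45 genes of the 54532 gene IDs measured, of which 22 were Mmp, 19 Adamts and 4 Timp genes. No measured value entered the rule, but the gene families were chosen with earlier results of these tumors known. Mmp1a was left out because the annotation lists it as a polymorphic pseudogene.

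RNAseq was available for 3 tumors from mice given an isotype-matched IgG and 3 tumors from mice given a murine anti-PD-1 mAb, and the comparison asks how the tumors' gene expression responds to blockade of the PD-1 immune checkpoint. All animals were of the same genotype. MMTV-NeuT places an Erbb2 oncogene under the mammary tumor virus promoter, which is active mainly in mammary epithelium, and FAT-ATTAC carries a drug-activated caspase in fat cells. FAT-ATTAC had come from C57BL/6 and was crossed into FVB before the cross with MMTV-NeuT. Both groups received AP20187 at 0.4 mg/kg from 6 weeks of age, which ablates mammary fat and induces fibrosis, so that no tumor without induced fibrosis was compared. From 8 weeks of age both groups received 100 μg of antibody 2 times per week. By the study's methods this treatment ran for 4 months. A legend of the study speaks of pooled RNA per group, the labels list 3 replicates in each, and neither says that replicates came from separate mice, so that p-values measure only the spread between these libraries.

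The steps of the FPKM values (fragments per kilobase of transcript, scaled to library size) gave library sizes between 22009894 and 25596224 reads. Reads recovered for the 53640 gene IDs with whole reads in all 6 tumors summed to between 20009700 and 23102293 per library. Of 8 epithelial markers, Erbb2 included, 6 were above 1 FPKM in every tumor, with Epcam between 689.9 and 1149.9 FPKM and Erbb2 between 20.3 and 31.4 FPKM, while the basal keratins Krt5 and Krt14 reached at most 2.99 FPKM. Epcam and Erbb2 were higher in every anti-PD-1 tumor than in any IgG tumor, beside 9.30% of all tested genes. Krt19 was lower in the same way, beside 8.75%. Of the 8 markers, 4 had positive log2 fold changes (anti-PD-1 over IgG). The part of epithelial content in the genes below was not tested. The 5 T cell markers found summed to at most 2.95 FPKM in any tumor. Skeletal muscle markers summed to 131.7, 74.1 and 133.9 FPKM in IgG 2, anti-PD-1 1 and anti-PD-1 2 and to at most 9.16 FPKM in the other 3 tumors, and their bearing on the genes below was not tested. Genes of chromosomes 4 and 9 were lower as a whole in anti-PD-1 tumors, with 83.6% of 926 and 82.3% of 798 tested genes below 0 in log2 fold change, and these values are given again beside the genes located there.

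Mmp genes encode zinc-dependent endopeptidases that together can cleave most proteins of the extracellular matrix. Most are secreted as inactive precursors, while the membrane-type enzymes stay on the cell surface, where Mmp14 (MT1-MMP) activates the precursor of Mmp2. ADAMTS proteases are secreted relatives that trim procollagens, cleave large proteoglycans such as versican and aggrecan, or act on smaller sets of matrix and blood proteins. The Timp proteins bind the active site of metalloproteinases and block it, with Timp3 the main inhibitor among them for ADAMTS enzymes, and Timp2 also serves Mmp14 in the activation of Mmp2. In mammary tumors much of this protease production is known to come from stromal cells.

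Of the 22 Mmp genes, 9 lie side by side on chromosome 9, in the order Mmp13, Mmp12, Mmp1b, Mmp3, Mmp10, Mmp8, Mmp27, Mmp20 and Mmp7, between 7272514 and 7699585 of GRCm38. Promoters of several genes of this cluster are textbook examples of control by AP-1, the Fos and Jun transcription factors, and the cluster includes Mmp3, the Mmp gene with the largest fold change below. The 250 bases before each annotated RefSeq start (GRCm38.p6) were therefore searched for the AP-1 letters TGAGTCA on either strand, that is, also for TGACTCA. Of the 45 genes, 31 had a start in the promoter table. The letters were found for 6 of these, and all 6 were among the 9 genes of the cluster, with none among the other 22 genes. For comparison, 5.16% of 27025 genes and 4.46% of 32851 start windows in the table held the letters. A match is a description of the sequence, and the count was made on these genes after they had been chosen. The stretches around the matches are shown 5′ to 3′ on each gene's strand, with the AP-1 letters in capitals.
Mmp13, chr9:7272449-7272513, plus strand: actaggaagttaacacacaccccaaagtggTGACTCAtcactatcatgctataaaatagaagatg
Mmp12, chr9:7347300-7347366, plus strand: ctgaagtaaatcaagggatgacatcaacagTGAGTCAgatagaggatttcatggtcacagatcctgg
Mmp1b, chr9:7388083-7388149, minus strand: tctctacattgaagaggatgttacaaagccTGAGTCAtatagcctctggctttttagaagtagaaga
Mmp3, chr9:7445746-7445812, plus strand: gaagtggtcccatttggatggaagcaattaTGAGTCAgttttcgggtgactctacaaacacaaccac
Mmp10, chr9:7502249-7502315, plus strand: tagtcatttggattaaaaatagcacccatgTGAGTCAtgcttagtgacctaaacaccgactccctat
Mmp7, chr9:7691997-7692063, plus strand: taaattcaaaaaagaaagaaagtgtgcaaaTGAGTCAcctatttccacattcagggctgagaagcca
The letters began 35 bases before the start of Mmp13, where they lie on the opposite strand. They began 44 bases before that of Mmp12, 46 before that of Mmp3, 63 before those of Mmp10 and Mmp7, and 93 before that of Mmp1b. For Mmp12 and Mmp7, 1 of the 2 annotated starts had the letters. Genes that share these letters had very different levels in the tumors, as shown further on.

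Levels of the 45 genes ran from 0 to 80.1 FPKM. Mmp15, a membrane-type enzyme, was the only one above 10 FPKM in all 6 tumors and the most abundant protease in each of them. In all, 15 genes including Mmp15 stayed above 1 FPKM in every tumor, whereas 17 reached at most 1 FPKM anywhere and Mmp20, the enamel protease, was listed at 0 throughout. After Mmp15, the highest mean levels among Mmp genes were those of Mmp14 (26.6 FPKM), Mmp2 (16.1 FPKM), Mmp16 (5.86 FPKM), Mmp3 (5.81 FPKM) and Mmp13 (4.28 FPKM). Mmp15 and Mmp14 together made up between 60.0% and 80.2% of the summed Mmp FPKM of a tumor. Among Adamts genes the order was Adamts10 (7.91 FPKM), Adamts7 (5.95 FPKM), Adamts3 (4.78 FPKM), Adamts2 (2.88 FPKM), Adamts12 (2.80 FPKM) and Adamts1 (2.73 FPKM). Timp2 (16.8 FPKM) and Timp1 (15.5 FPKM) had near-equal means, Timp3 averaged 3.17 FPKM, and Timp4 did not exceed 0.0265 FPKM, or 4 reads. The means of Mmp16 and Mmp3, of Adamts2 and Adamts12 and of Timp2 and Timp1 differed by less than the spread over the tumors.

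**Figure D1:**
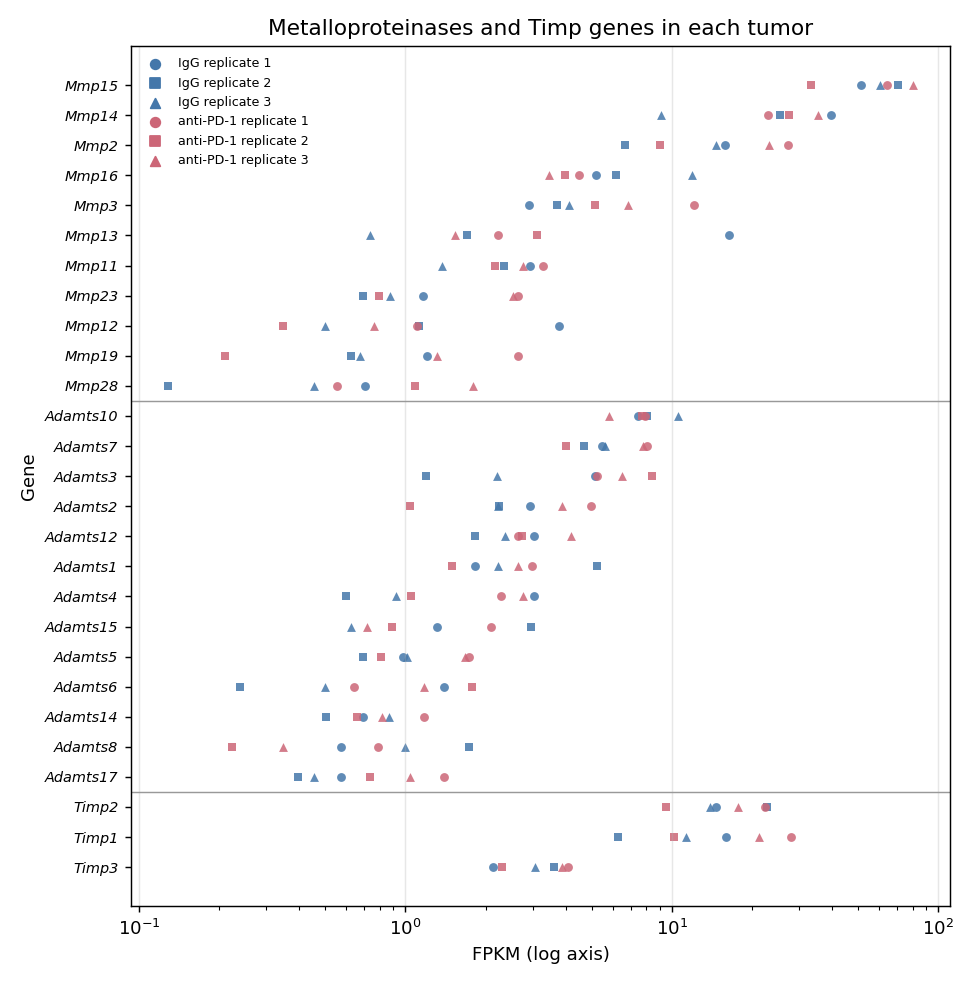
FPKM on a log axis of the 27 genes tested, 1 point per tumor (blue, IgG; red, anti-PD-1; shapes, replicate numbers), grouped as Mmp, Adamts and Timp genes and ordered by mean level. Mmp15 has the highest points of every tumor, between 33.4 and 80.1 FPKM, and the colors mix in most rows.

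A mean of at least 0.5 FPKM over the 6 tumors was required for a test, which 27 of the 45 genes met (11 Mmp, 13 Adamts and 3 Timp genes). Differences were estimated with limma on log2(FPKM + 1), a scale that understates the change of genes near or under 1 FPKM. Of these 27 genes, 18 had a log2 fold change above 0 and 9 below, with a median of 0.24 beside 0.01 for all 15069 genes tested. This median was 0.09 without anti-PD-1 1, 0.37 without anti-PD-1 2 and 0.40 without IgG 1. In anti-PD-1 tumors, Mmp3 and Adamts3 were higher at an unadjusted p under 0.05, which is 7.41% of the 27 genes, beside a background of 6.22% of all genes. Mmp16 was lower by the same criterion, beside a background of 6.05% of all genes. None passed after Benjamini-Hochberg adjustment over all genes in limma (lowest adjusted p = 0.355), and neither did any of the 15069 genes, of which 1848 had an unadjusted p under 0.05, while 1 gene passed with voom on recovered reads. The 3 anti-PD-1 values lay above the 3 IgG values for Mmp3, Adamts3 and Adamts17, beside 9.30% of all genes, and below them for Mmp16, beside 8.75%. In bulk tumor RNA, a lower number of cells of a type and less RNA per cell cannot be told apart.

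**Figure D2:**
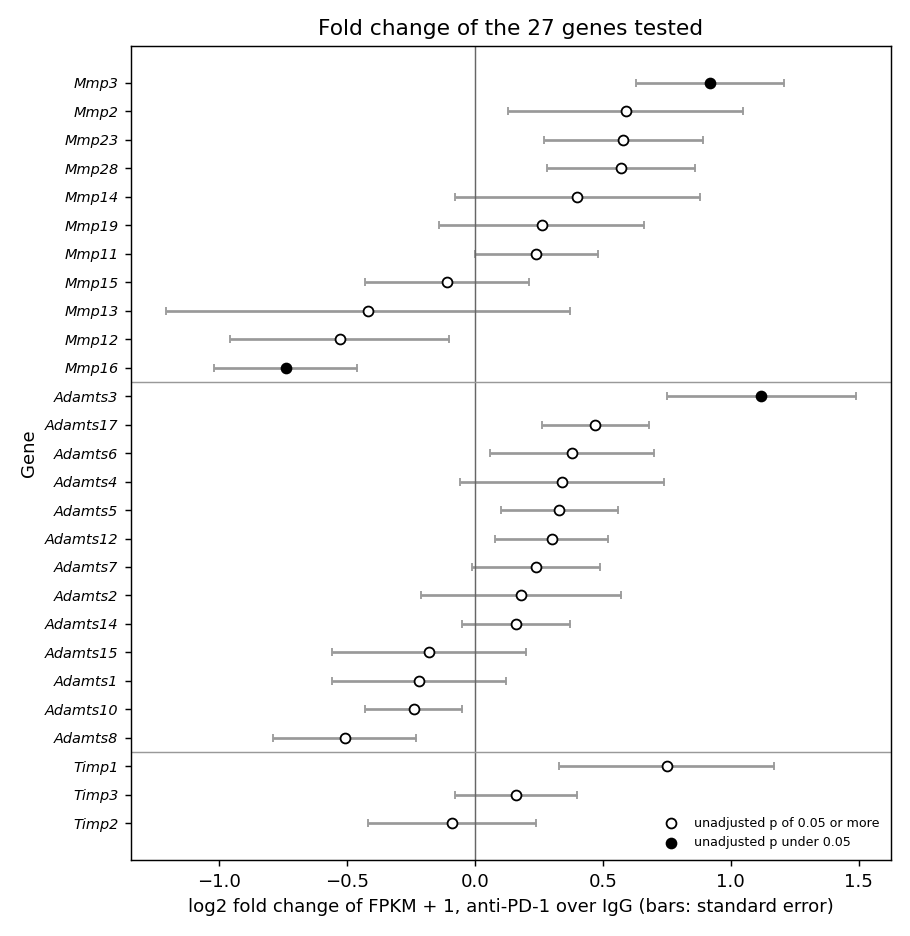
Log2 fold change of FPKM + 1, anti-PD-1 over IgG (x axis), for each of the 27 genes tested (y axis), with bars of 1 standard error. Filled points have an unadjusted limma p under 0.05, and these are Mmp3 and Adamts3 to the right of 0 and Mmp16 to the left.

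The tumors of a group were not alike in these genes. Across the 27 tested genes, anti-PD-1 1 held the highest value of 12 and the lowest of none, while anti-PD-1 2 held the highest of 2 and the lowest of 8. IgG 2 held the lowest of 11. The median gene, on log2(FPKM + 1) and relative to its own mean over the 6 tumors, stood at 0.31 in anti-PD-1 1, 0.24 in anti-PD-1 3, -0.01 in IgG 1, -0.24 in IgG 3, -0.26 in IgG 2 and -0.31 in anti-PD-1 2. Thus the tumors with the highest and the lowest median were both treated with anti-PD-1 mAb. Without anti-PD-1 2, 8 genes (29.6% of the 27) were higher at an unadjusted p under 0.05, beside 5.46% of all genes. These were Mmp2, Mmp3, Mmp23, Adamts2, Adamts5, Adamts7, Adamts17 and Timp1. Without any 1 of the other 5 tumors, between 1 and 3 of the genes (3.70% to 11.1%) were higher by this criterion, beside 3.31% to 8.41% of all genes. The count of lower genes was 2 without IgG 1, beside 9.41% of all genes, and 1 without IgG 2, beside 3.05%. It was 0 without any 1 of the other 4 tumors, beside 3.33% to 5.21%.

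Of the stromelysins and matrilysin (Mmp3, Mmp7, Mmp10 and Mmp11), 2 of 4 were tested and both had positive log2 fold changes. Mmp3, or stromelysin-1, degrades proteoglycans, laminin and fibronectin and activates other Mmp precursors, and the study singled it out on these same tumors. Mmp3 measured 2.90, 3.72 and 4.12 FPKM in IgG 1 to 3 against 12.1, 5.15 and 6.83 FPKM in anti-PD-1 1 to 3. All anti-PD-1 tumors were thus above all IgG tumors, with anti-PD-1 1 far above the rest, on 115 to 560 reads. The log2 fold change was 0.92 (SE 0.29), with an unadjusted limma p of 0.0155 and an adjusted p of 0.355 (0.282 to 0.766 over the alternative settings). A two-sided exact permutation test gave p = 0.1, which is the smallest that 3 against 3 tumors allow. Without anti-PD-1 1 the fold change was 0.61 on the log2 scale, and without IgG 1 it was 0.81 with an unadjusted limma p of 0.0508. Mmp11, stromelysin-3, lay between 1.37 and 3.29 FPKM with overlapping groups. Mmp7 (matrilysin) was seen only in anti-PD-1 1, with 5 reads.

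The chromosome 9 cluster was led by different tumors at different genes. Mmp13 is the main interstitial collagenase of rodents, and its values were 16.4, 1.70 and 0.736 FPKM in IgG 1 to 3 against 2.22, 3.12 and 1.53 FPKM in anti-PD-1 1 to 3. IgG 1 alone exceeded the next tumor by more than the sum of all other values, and the range of 3.32 on log2(FPKM + 1) was the widest of the 27 genes. Its log2 fold change was -0.42 (SE 0.79, limma adjusted p = 0.852) and became 0.58 without IgG 1. The 3 neighbours Mmp12, Mmp10 and Mmp8, chosen after their values were seen, were also highest in IgG 1. Mmp12, the macrophage elastase, overlaps Mmp1b on the opposite strand and measured 3.76 FPKM there and 0.348 to 1.12 FPKM in the other tumors. Mmp10, stromelysin-2, measured 1.11 FPKM (42 reads) there and at most 0.0978 FPKM elsewhere. Mmp8, the neutrophil collagenase, was low throughout, at 0.281 FPKM in IgG 1 and at most 0.156 FPKM in the other tumors. Mmp3 went the other way and was lowest in IgG 1. Summed without Mmp3, the cluster came to 21.6 FPKM in IgG 1 and to between 1.47 and 3.77 FPKM in the other 5 tumors. The 8 macrophage markers summed to 441.6 FPKM in IgG 1 and to between 231.1 and 649.8 FPKM in the other tumors, and none of the 8 was highest in IgG 1. Neutrophil markers summed to 12.4 FPKM in IgG 1 and to between 2.86 and 26.0 FPKM in the others. The part of either cell type in these levels was not tested. The median tested gene of chromosome 9 was at -0.36 in log2 fold change, the opposite sign of Mmp3, and the part of this shift in the values of the cluster was not tested.

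**Figure D3:**
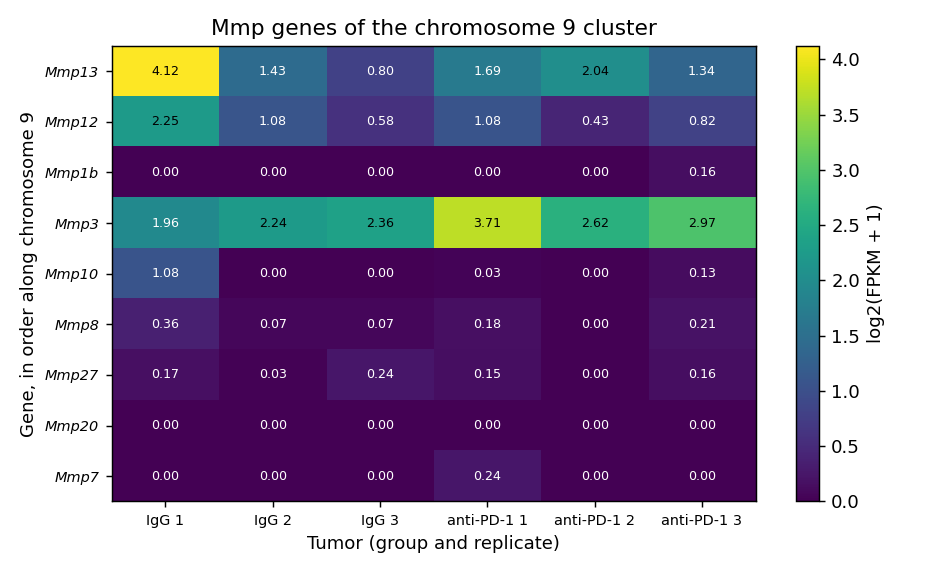
Log2(FPKM + 1) of the 9 genes of the chromosome 9 cluster (rows, in chromosomal order) in each tumor (columns). Mmp13, Mmp12, Mmp10 and Mmp8 are brightest in IgG 1, whereas Mmp3 is brightest in anti-PD-1 1 and lowest in IgG 1, and Mmp20 is at 0 in all tumors.

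The gelatinases Mmp2 and Mmp9 cleave denatured collagen and basement membrane type IV collagen. Mmp2 measured 15.8, 6.65 and 14.7 FPKM in IgG 1 to 3 against 27.2, 8.99 and 23.2 FPKM in anti-PD-1 1 to 3. The highest 2 values were in anti-PD-1 tumors, but anti-PD-1 2 lay below IgG 1 and IgG 3. A log2 fold change of 0.59 (SE 0.46) did not pass (limma adjusted p = 0.621), and it was 1.06 without anti-PD-1 2, with an unadjusted limma p of 0.0268, but 0.22 without IgG 2 and 0.30 without anti-PD-1 1. Mmp9 was described after its values were seen and was too low for the test. It measured 0.282, 0.224 and 0.162 FPKM in the IgG tumors and 0.695, 0.466 and 0.583 FPKM in the anti-PD-1 tumors. The groups did not overlap, with 14 to 22 reads in IgG and 40 to 63 reads in anti-PD-1 tumors, and without the minimum level Mmp9 had a log2 fold change of 0.37 with an unadjusted limma p of 0.0134 and an adjusted p of 0.556.

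The membrane-type and membrane-anchored enzymes held the bulk of Mmp RNA, and 1 of the 4 tested of 7 was lower at an unadjusted p under 0.05, beside 6.05% of all genes. Mmp15 (MT2-MMP) measured 51.4, 70.6 and 60.6 FPKM in IgG 1 to 3 against 64.0, 33.4 and 80.1 FPKM in anti-PD-1 1 to 3. The values of the IgG tumors lay inside the span of the other group, with a log2 fold change of -0.11 (SE 0.32, limma adjusted p = 0.908), or 0.25 without anti-PD-1 2. Mmp15 lies on chromosome 8, as do Mmp2 and Comp. Relative to the mean over tumors, the median of that chromosome's 804 tested genes stood at -0.06, 0.01 and 0.03 in IgG 1 to 3. In anti-PD-1 1 to 3 it stood at 0.13, -0.29 and 0.13. The part of this shift in the values of Mmp15, Mmp2 and Comp was not tested. Mmp14 measured 39.4, 25.4 and 9.07 FPKM against 22.9, 27.4 and 35.2 FPKM. IgG tumors held both its highest and its lowest value, and the log2 fold change of 0.40 (SE 0.48, limma adjusted p = 0.758) became -0.16 without IgG 3.

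Mmp16 (MT3-MMP), on chromosome 4 at 17852893 to 18119145, cleaves type III collagen and can also activate Mmp2. It measured 5.17, 6.19 and 11.9 FPKM in IgG 1 to 3 against 4.49, 3.97 and 3.45 FPKM in anti-PD-1 1 to 3. Every anti-PD-1 tumor was below every IgG tumor, although anti-PD-1 1 and IgG 1 were close. For Mmp16 the log2 fold change was -0.74 (SE 0.28), with an unadjusted limma p of 0.0347, an adjusted p of 0.383 and an exact permutation p of 0.1. Without IgG 3 it was -0.42, with an unadjusted limma p of 0.0648, and the unadjusted p was also above 0.05 without anti-PD-1 1 (0.0510), anti-PD-1 2 (0.0722) or anti-PD-1 3 (0.0982) in limma. The median of the 926 tested genes of chromosome 4 was itself at -0.40, and per tumor it stood at -0.09, 0.35 and 0.31 in IgG 1 to 3 and at -0.16, -0.22 and -0.24 in anti-PD-1 1 to 3 relative to the mean over tumors. How much of the difference in Mmp16 this shift accounts for was not tested. Mmp23, named after its values were seen, is the other tested Mmp gene on chromosome 4 and had a positive log2 fold change of 0.58 (SE 0.31, limma adjusted p = 0.474).

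Of the remaining secreted enzymes, none had an unadjusted p under 0.05 with all 6 tumors. Of Mmp12, Mmp19, Mmp20, Mmp21, Mmp27 and Mmp28, 3 were tested, with log2 fold changes from -0.53 to 0.57. The upper end was Mmp28 (epilysin), which without anti-PD-1 1 had a log2 fold change of 0.78 and an unadjusted limma p of 0.0355, as was seen afterwards. Untested Mmp genes were at most at 1.11 FPKM in any tumor, the value of Mmp10 in IgG 1.

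Among ADAMTS genes, the procollagen N-propeptidases Adamts2, Adamts3 and Adamts14 cut the amino-terminal propeptide from fibrillar procollagens. All 3 were tested, all had positive log2 fold changes (0.16 to 1.12), and 1 had an unadjusted p under 0.05, beside 6.22% of all genes higher. Adamts3 also processes the lymphatic growth factor Vegfc. Adamts3 measured 5.14, 1.20 and 2.20 FPKM in IgG 1 to 3 against 5.23, 8.39 and 6.50 FPKM in anti-PD-1 1 to 3. The groups did not overlap, but IgG 1 nearly reached anti-PD-1 1. Adamts3 had a log2 fold change of 1.12 (SE 0.37), the highest of the 27 genes, with an unadjusted limma p of 0.0193, an adjusted p of 0.355 (0.101 to 0.766 over the alternatives) and an exact permutation p of 0.1. The unadjusted limma p was 0.0556 without IgG 2 (log2 fold change 0.78), 0.0561 without IgG 3 and 0.0626 without anti-PD-1 2.

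Adamts2, the main procollagen I N-propeptidase, measured 2.93, 2.25 and 2.22 FPKM in IgG 1 to 3 against 4.99, 1.04 and 3.86 FPKM in anti-PD-1 1 to 3. Both extremes were anti-PD-1 tumors. Its log2 fold change was 0.18 (SE 0.39, limma adjusted p = 0.874), it was -0.13 without anti-PD-1 1, and it was 0.65 without anti-PD-1 2, with an unadjusted limma p of 0.0201. Adamts14 lay between 0.505 and 1.17 FPKM with overlapping groups.

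The hyalectan-cleaving enzymes Adamts1, Adamts4, Adamts5, Adamts8, Adamts9, Adamts15 and Adamts20 act on versican and aggrecan. Of these 7 genes 5 were tested, 2 had positive log2 fold changes, and none had an unadjusted p under 0.05, with a median of -0.18. Adamts1 measured 1.83, 5.24 and 2.23 FPKM in IgG 1 to 3 against 2.98, 1.49 and 2.64 FPKM in anti-PD-1 1 to 3. IgG 2 was the highest by far, and without it the log2 fold change of -0.22 (SE 0.34, limma adjusted p = 0.823) became 0.13. Adamts8 and Adamts15 lie beside each other on chromosome 9 and were both highest in IgG 2, at 1.74 and 2.96 FPKM, as was seen after the values were examined. Without IgG 1, Adamts8 was the second lower gene, with a log2 fold change of -0.70 and an unadjusted limma p of 0.0498, in a setting where 9.41% of all genes were lower. Chromosome 9 as a whole stood at a median log2 fold change of -0.36, with 82.3% of its 798 tested genes below 0. Per tumor its median gene was at -0.13, 0.31 and 0.32 in IgG 1 to 3 and at -0.05, -0.26 and -0.27 in anti-PD-1 1 to 3, relative to the mean over tumors, and the part of this shift in Adamts8 and Adamts15 was not tested.

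In the remaining ADAMTS genes, 5 of 9 were tested and 4 had positive log2 fold changes, with a median of 0.30 and no unadjusted p under 0.05. Adamts10, which acts in fibrillin microfibrils, was the leading ADAMTS gene of all 3 IgG tumors, at 7.49, 8.04 and 10.5 FPKM, against 7.95, 7.71 and 5.80 FPKM in anti-PD-1 1 to 3. The lead passed to Adamts7 in anti-PD-1 1 and 3 and to Adamts3 in anti-PD-1 2. The groups nonetheless overlapped for Adamts10, with a log2 fold change of -0.24 (SE 0.19, limma adjusted p = 0.627) that was -0.11 without IgG 3 or without anti-PD-1 3. Adamts7, which cleaves the matrix protein Comp, measured 5.48, 4.68 and 5.63 FPKM against 8.07, 4.02 and 7.80 FPKM. Anti-PD-1 1 and 3 lay above the IgG tumors and anti-PD-1 2 below them, and the log2 fold change of 0.24 (SE 0.25, limma adjusted p = 0.723) was 0.53 without anti-PD-1 2, with an unadjusted limma p of 0.0235, but 0.09 without anti-PD-1 1 and 0.12 without anti-PD-1 3. Adamts7 also lies on chromosome 9, with its median of -0.36, and overlaps Tbc1d2b on the opposite strand.

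Adamts12, another enzyme known to act on Comp, measured 3.04, 1.83 and 2.36 FPKM in IgG 1 to 3 against 2.64, 2.74 and 4.17 FPKM in anti-PD-1 1 to 3, and the groups overlapped (log2 fold change 0.30, SE 0.22, limma adjusted p = 0.612, or 0.14 without anti-PD-1 3 and 0.16 without IgG 2). It lies on chromosome 15, where the median log2 fold change was 0.17 and 28.9% of 630 tested genes were below 0. Relative to the mean over tumors, the chromosome's median gene was at 0.33 in anti-PD-1 3 and between -0.18 and -0.01 in the other tumors. The part of this shift in Adamts12 was not tested. Adamts17, linked like Adamts10 to fibrillin microfibrils, was low but separated the groups, with 0.573, 0.397 and 0.454 FPKM in IgG 1 to 3 against 1.39, 0.738 and 1.04 FPKM in anti-PD-1 1 to 3. Its log2 fold change on FPKM + 1 was 0.47 (SE 0.21, unadjusted limma p = 0.0606, adjusted p = 0.423, exact permutation p = 0.1). With voom on the recovered reads, which adds far less to low values, it was 1.13 with an unadjusted p of 0.0153 and an adjusted p of 0.327 in limma. Without anti-PD-1 2 the unadjusted limma p was 0.0401. Adamts13, the protease of von Willebrand factor, was described after its values were seen. It had 2 to 4 reads in IgG tumors and at most 1 in anti-PD-1 tumors, too few for a fold.

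Of the 4 inhibitors 3 were tested, 2 had positive log2 fold changes, and none had an unadjusted p under 0.05. Timp1, a secreted inhibitor of most Mmp enzymes that is readily induced in injured and fibrotic tissue, measured 15.9, 6.29 and 11.3 FPKM in IgG 1 to 3 against 27.9, 10.2 and 21.2 FPKM in anti-PD-1 1 to 3. As for Mmp2, anti-PD-1 1 and 3 were the highest tumors and anti-PD-1 2 lay below IgG 1 and IgG 3. Its log2 fold change was 0.75 (SE 0.42, unadjusted limma p = 0.119, exact permutation p = 0.3). It ranged from 0.41 without IgG 2 to 1.15 without anti-PD-1 2, where the unadjusted limma p was 0.0198.

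Timp2 measured 14.6, 22.8 and 13.9 FPKM in IgG 1 to 3 against 22.3, 9.47 and 17.7 FPKM in anti-PD-1 1 to 3. IgG 2, the tumor with the least Timp1, had the most Timp2. The log2 fold change of Timp2 was -0.09 (SE 0.33, limma adjusted p = 0.932), and it was above 0 without IgG 2 (0.12) or without anti-PD-1 2 (0.25). Timp3, which is held in the matrix, measured 2.14, 3.60 and 3.06 FPKM against 4.06, 2.31 and 3.86 FPKM, with overlapping groups and a log2 fold change of 0.16 (SE 0.24, limma adjusted p = 0.812) that ran from 0.01 without IgG 1 to 0.36 without anti-PD-1 2. Timp1 supplied 48.7%, 19.2% and 40.0% of the summed Timp FPKM in IgG 1 to 3 and 51.4%, 46.3% and 49.5% in anti-PD-1 1 to 3. It was thus the leading inhibitor of all anti-PD-1 tumors and of IgG 1, and Timp2 led in IgG 2 and IgG 3.

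Proteases and inhibitors were then set against each other in each tumor. The 41 Mmp and Adamts genes summed to 178.3, 150.2 and 137.1 FPKM in IgG 1 to 3 and to 187.9, 119.1 and 201.1 FPKM in anti-PD-1 1 to 3. The 4 Timp genes summed to 32.7, 32.7 and 28.3 FPKM in IgG 1 to 3 and to 54.3, 22.0 and 42.8 FPKM in anti-PD-1 1 to 3. In both sums anti-PD-1 2 was the lowest of the 6 tumors and the other 2 anti-PD-1 tumors were the highest, so that the groups overlapped. Protease over inhibitor RNA was 5.45, 4.59 and 4.84 in IgG 1 to 3 and 3.46, 5.42 and 4.70 in anti-PD-1 1 to 3. Anti-PD-1 1 had the lowest ratio, with the most Timp RNA, whereas anti-PD-1 2 nearly equalled the highest ratio, that of IgG 1. The group means were 4.96 ± 0.442 (SD, n = 3) for IgG and 4.53 ± 0.991 (SD, n = 3) for anti-PD-1, a smaller difference than the spread within anti-PD-1 tumors. On the log2 scale the ratio differed by -0.15, within the pooled SD of 0.25. It was -0.30 without anti-PD-1 2, 0.03 without anti-PD-1 1, and -0.41 when Mmp15 and Timp2, the genes with the highest mean of their kind, were left out. No test was made on these sums, and RNA levels do not show how much enzyme was active.

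**Figure D4:**
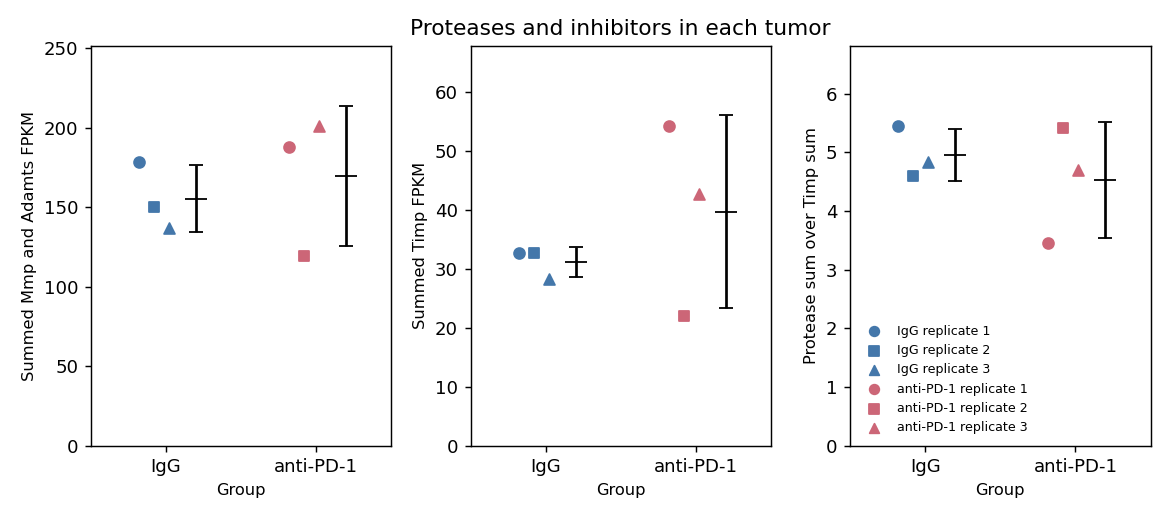
Summed FPKM of the Mmp and Adamts genes (left), of the Timp genes (middle) and their ratio (right) for each tumor, with the mean and SD of each group in black. The groups overlap in all 3 panels, and the anti-PD-1 tumors span a wider range than the IgG tumors.

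The spread within a group depended on the measure. The SD over 3 tumors of the Timp sum was 2.54 FPKM in IgG and 16.4 FPKM in anti-PD-1, and that of the protease sum was 21.1 FPKM in IgG and 44.0 FPKM in anti-PD-1. For the share of Timp1 in the Timp sum it was the other way, with an SD of 15.2 percentage points in IgG and 2.58 in anti-PD-1, and likewise for Timp2 over Mmp2 (1.44 and 0.152). The IgG spread of Timp2 over Mmp2 came from IgG 2 alone, at 3.43 against 0.924 and 0.947 in IgG 1 and IgG 3. The Timp1 share was also lowest in IgG 2, at 19.2%. These differences in spread were not tested. The Adamts sum was 32.3 ± 2.69 FPKM (SD, n = 3) in IgG and 38.4 ± 5.87 FPKM (SD, n = 3) in anti-PD-1, and the Mmp sum was 122.9 ± 18.6 FPKM (SD, n = 3) and 131.0 ± 38.7 FPKM (SD, n = 3). Both overlapped between groups.

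Mmp2 and Timp1 ranked the 6 tumors in the same order, which was anti-PD-1 1, anti-PD-1 3, IgG 1, IgG 3, anti-PD-1 2 and IgG 2. Timp1 over Mmp2 was 1.01, 0.946 and 0.772 in IgG 1 to 3 and 1.03, 1.13 and 0.913 in anti-PD-1 1 to 3. Timp2 over Mmp2 was 3.43 in IgG 2 and between 0.764 and 1.05 in the other 5 tumors, a span like that of Timp1 over Mmp2. In those 5 tumors Timp2 also kept the order of Mmp2, and it departed from it in IgG 2 alone. Mmp14 over Mmp2 ran from 0.618 in IgG 3 to 3.81 in IgG 2, and to 3.05 in anti-PD-1 2 without that tumor. Of the fibroblast markers, the collagens Col1a1, Col1a2 and Col3a1 ranked the tumors as Mmp2 and Timp1 did or with only IgG 1 and anti-PD-1 3 exchanged. The 8 markers summed to 241.6, 81.8 and 112.2 FPKM in IgG 1 to 3 and to 345.4, 93.6 and 207.4 FPKM in anti-PD-1 1 to 3, with none at 0 in any tumor. Their sum differed from the order of Mmp2 only in that IgG 1 came before anti-PD-1 3. Those collagens made up most of the sum. The other 5 markers summed to 36.5, 31.9 and 26.2 FPKM in IgG 1 to 3 and to 50.3, 14.6 and 25.3 FPKM in anti-PD-1 1 to 3, with anti-PD-1 3 below all IgG tumors. Dcn, the proteoglycan decorin, was higher in IgG 2 (14.2 FPKM) than in anti-PD-1 3 (9.55 FPKM). Col1a1, a chain of type I collagen, measured 94.2, 17.5 and 34.5 FPKM against 123.6, 31.8 and 72.1 FPKM. As a list, 4 of the 8 markers had positive log2 fold changes and none an unadjusted p under 0.05. The part of the fibroblast content in the levels of Mmp2 and Timp1 was not tested. All 8 macrophage markers had log2 fold changes above 0, but these began at 0.01 for Adgre1 and 0.11 for Csf1r. Their median was 0.32, beside 0.01 for all genes. Only Cd68, at 0.76, had an unadjusted p under 0.05, beside 6.22% of all genes higher. The groups overlapped for every macrophage marker but Cd68. The sum of the 8 markers was highest in IgG 2 (649.8 FPKM), where Cd14 alone gave 323.6 FPKM. Without Cd14 the other 7 summed to 276.4, 326.2 and 186.0 FPKM in IgG 1 to 3 and to 386.4, 243.1 and 391.0 FPKM in anti-PD-1 1 to 3, so that anti-PD-1 1 and 3 were highest, as for Mmp2 and Timp1. IgG 2 came next in this sum, whereas it had the lowest Mmp2 and Timp1. Leaving out Cd14 was not planned beforehand. The part of macrophages in these levels was not tested.

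**Figure D5:**
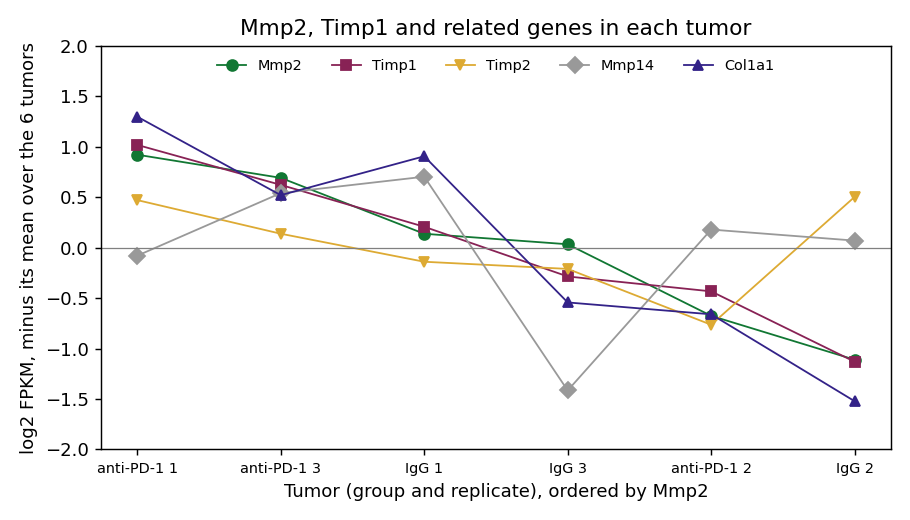
Log2 FPKM minus the gene's mean over the 6 tumors (y axis) of Mmp2, Timp1, Timp2, Mmp14 and Col1a1, with the tumors ordered by Mmp2 (x axis); lines only join the points of a gene. Mmp2 and Timp1 fall together from anti-PD-1 1 to IgG 2, as does Timp2 except in IgG 2, while Mmp14 does not follow them.

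Other genes of the pathway were taken from a list of 28 activators, further inhibitors and relatives, of which 21 were tested. The median log2 fold change was 0.06, with 1 gene higher and 2 lower at an unadjusted p under 0.05, beside 6.22% and 6.05% of all genes. Reck, a membrane-anchored inhibitor of several Mmp enzymes, had the smallest p of these 21 genes. It measured 3.76, 4.54 and 6.73 FPKM in IgG 1 to 3 against 2.31, 2.06 and 2.32 FPKM in anti-PD-1 1 to 3. The groups did not overlap, and the anti-PD-1 tumors were nearly alike. The log2 fold change was -0.86 (SE 0.21), with an unadjusted limma p of 0.00461, an adjusted p of 0.344 and an exact permutation p of 0.1, and it stayed between -1.02 and -0.67 without any 1 tumor. Reck lies on chromosome 4 at 43875530 to 43944806, so that the chromosome's median of -0.40 stands beside this value as it does for Mmp16.

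Adamtsl2, an ADAMTS-like protein without protease activity that binds the TGF-beta system, measured 0.853, 2.80 and 9.05 FPKM in IgG 1 to 3 against 0.660, 0.113 and 0.284 FPKM in anti-PD-1 1 to 3. The groups did not overlap, but IgG 3 was far above the rest. Its log2 fold change was -1.63 (SE 0.56), with an unadjusted limma p of 0.0230, an adjusted p of 0.365 and an exact permutation p of 0.1, and it was -0.99 without IgG 3. On scales that add less to low values it was larger, at -2.88 with 0.1 added to the FPKM and -3.33 with voom on recovered reads. The unadjusted limma p was 0.0642 without anti-PD-1 2 and 0.0556 without anti-PD-1 3. Bmp1, the procollagen C-proteinase, which the study also singled out on these tumors, measured 14.3, 4.90 and 4.56 FPKM in IgG 1 to 3 against 21.5, 11.8 and 13.9 FPKM in anti-PD-1 1 to 3. IgG 1 was above anti-PD-1 2 and 3, so that the groups overlapped (log2 fold change 1.03, SE 0.42, limma adjusted p = 0.395), with an unadjusted limma p of 0.0413. The unadjusted limma p lay between 0.0687 and 0.131 without IgG 2, IgG 3, anti-PD-1 1 or anti-PD-1 3.

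Of 14 substrates listed, 11 were tested and 9 had positive log2 fold changes, with a median of 0.66 beside 0.01 for all genes. Comp, a cartilage matrix protein also made in fibrotic tissue and cleaved by Adamts7 and Adamts12, was the only one with an unadjusted p under 0.05, beside 6.22% of all genes higher. It measured 125.1, 18.5 and 95.7 FPKM in IgG 1 to 3 against 390.5, 195.8 and 521.7 FPKM in anti-PD-1 1 to 3. The groups were well apart, with a log2 fold change of 2.47 (SE 0.71, unadjusted limma p = 0.0100, adjusted p = 0.344, exact permutation p = 0.1), between 1.63 (without IgG 2) and 2.99 without any 1 tumor. Of the 6 cartilage markers 4 were tested and 3 had positive log2 fold changes, with a median of 0.56. Only 1 had an unadjusted p under 0.05, beside 6.22% of all genes higher. That 1 was Col11a2, a minor cartilage collagen, with 3.49, 1.37 and 3.03 FPKM in IgG 1 to 3 against 14.0, 5.42 and 16.6 FPKM in anti-PD-1 1 to 3. Like Comp it did not overlap between the groups (log2 fold change 1.77, unadjusted limma p of 0.00373, adjusted p of 0.344). Summed, the 6 markers ran from 245.5 to 312.5 FPKM in IgG and from 282.0 to 333.3 FPKM in anti-PD-1 tumors, mostly from Col9a1 (211.7 to 297.2 FPKM). Col2a1, which defines cartilage, reached at most 6.06 FPKM and Matn1 was listed at 0 in all 6 tumors. The part of cartilage-type cells in the level of Comp was not tested.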

How the data were processed

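RNAseq of 6 mammary tumors (3 IgG, 3 anti-PD-1 mAb) was analyzed. The authors deposited FPKM values per Ensembl gene ID. The submitters' processing notes name FastQC 0.11.9, cutadapt 3.5, Bowtie2 2.4.1, RSEM 1.3.1, the authors' DESeq2 1.36.0 and the build mm10. How the FPKM was made and whether counting used strand are not given in the sources used here, so reads of overlapping genes may be shared. Of 54532 IDs, 54495 matched GENCODE M21 (Ensembl release 96, GRCm38), and 28732 were above 0. FPKM times merged exon length fell within 0.1 of whole multiples of 1 read for 97.0% to 97.3% of values, which gave recovered reads for 44 of the 45 genes (not Adamts10). FPKM steps hold no more precision than these reads, and low genes rest on few.

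Tests used log2(FPKM + 1), after division by median-of-ratios factors, of genes averaging 0.5 FPKM or more. The tool was limma 3.58.1 under R 4.3.3 (lmFit and trended eBayes), two-sided, with Benjamini-Hochberg adjustment over 15069 genes, in place of the authors' count test, since the files hold FPKM. The fit was tested on simulated data. Exact permutation tests compared 3 with 3 log2 values. Alternatives were 0.1 added, no minimum or a minimum of 2 FPKM, no rescaling, quantile normalization, no trend, voom on recovered reads, a replicate block and leaving out each tumor. Promoter stretches came from RefSeq (GRCm38.p6). Tables and figures were made with matplotlib 3.10.9, pandas 2.3.3 and numpy 2.4.6 in Python 3.11.15.

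Genes named with full values were those with an unadjusted p under 0.05 or with groups that did not overlap among those tested, the 4 Timp genes, the 6 highest Mmp and Adamts genes, Mmp3, the 3 widest in range, and related genes with an unadjusted p under 0.05. Other names are said to have been chosen afterwards or stand for their class. The genes and lists were chosen with earlier results of these data known.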

Additional observations from a re-analysis of the deposited data

How the results depend on the processing

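The genes higher in anti-PD-1 tumors at an unadjusted p under 0.05 numbered 2, and 4 without a minimum FPKM (of 44 genes tested, beside 4.19% of all genes) and 4 with a replicate block (beside 6.09%). They ran from 1 to 8 when 1 tumor was left out, beside 3.31% to 8.41% of all genes. The genes lower numbered 1, then 0 with the replicate block (beside 5.36%) and 0 to 2 when 1 tumor was left out (beside 3.05% to 9.41%). Over all genes, those higher ran from 498 to 1268 and those lower from 459 to 1419 when 1 tumor was left out, with IgG 2 left out at the low ends and IgG 1 at the high ends. Genes with an adjusted limma p under 0.05 numbered 0, then 1 with voom on recovered reads and 0 to 12 when 1 tumor was left out. The log2 protease to inhibitor difference of -0.15 was -0.41 without Mmp15 and Timp2 and ran from -0.30 to 0.03 when 1 tumor was left out. It was 0.01 with summed recovered reads, within the spread between tumors.

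Of the named genes, Mmp14 changed sign without IgG 3 (-0.16, range -0.16 to 0.84 over the tumors left out), Mmp13 without IgG 1 (0.58, range -1.08 to 0.58), Mmp15 without anti-PD-1 2 (0.25, range -0.36 to 0.25), Adamts1 without IgG 2 (0.13, range -0.44 to 0.13), Adamts2 without anti-PD-1 1 (-0.13, range -0.13 to 0.65), and Timp2 without IgG 2 (0.12) and anti-PD-1 2 (0.25, range -0.33 to 0.25), all in log2 fold change. With all tumors kept, 4 named genes moved by over 1.5 times in log2 fold change. These were Adamts17 (0.98 with 0.1 added, 1.13 with voom), Adamtsl2 (-2.88 and -3.33), Mmp13 (-0.27 with voom) and Mmp15 (-0.26 with quantile normalization). In all, 7 values of named genes under the alternatives changed sign, 16 lost and 10 gained an unadjusted p under 0.05, and 245 did neither. The cause was not tested. Deviations from the group mean over all tested genes correlated at -0.16, 0.01 and 0.19 between same-numbered tumors of the groups. Between tumors of unlike number the correlations ran from -0.26 to 0.24. With 3 tumors per group these values cannot decide whether the numbers mark a pairing, and the main fit used none. With the block, Timp1 and Mmp2 passed at an unadjusted limma p of 0.00467 and 0.0155, and Mmp16 did not (0.0533). With 3 tumors per group no exact permutation p can fall under 0.1.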
